A study of Mus musculus with 2 samples.

Results

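The 7 genes described here were grouped around CD1d and SLAM receptors in the selection of invariant natural killer T (iNKT) cells in the thymus. They are Cd1d1, 4 receptors of the SLAM family (Slamf1, Slamf6, Slamf7 and Ly9), the adaptor gene Sh2d1a and the kinase gene Fyn. Whether each of the 7 genes acts in this selection was not tested. They were taken by name, with earlier results of these data known, and all 7 were found among the 32285 gene rows. Thymocytes of C57BL/6 background were sorted from control mice (Ctrl) and from mice in which floxed Kidins220 was deleted in T cells by Cre under the proximal Lck promoter (T-KO). Ages were given only as ranges for the whole study. Cells sorted as TCRβ+, CD1d tetramer+, CD24+ and NK1.1- were called stage 0, and TCRβ+, CD1d tetramer+, NK1.1+, CD24- and CD44+ cells stage 3. Thymi of 4 mice per genotype were pooled, each sort was done in 2 parallel repeats, and the 8 resulting populations were marked with hashtag antibodies and loaded together as 1 run, which gave 1 library of 5′ transcript ends and 1 of the hashtag antibodies.

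In the thymus, iNKT precursors are selected by CD1d, an MHC class I-like molecule that presents glycolipids on double-positive (DP) thymocytes. Homotypic contacts of SLAM receptors between thymocytes give a second signal, which the adaptor SAP, the product of Sh2d1a, passes to the kinase Fyn. Loss of SAP or of Fyn is known to impair iNKT development, and the transcription factor PLZF, the product of Zbtb16, is induced early in cells that enter this lineage.

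Before the results, 3 limits of the samples have to be given. First, nearly all hashtag UMIs (unique molecular identifiers, each standing for 1 captured molecule) lay on hashtag rows 11 to 18, whereas the study names hashtags 1 to 8, and no source used here pairs the rows with the populations. No row was therefore assigned to a stage or genotype, Ctrl and T-KO were not compared, and no test was made. Second, of 12147 barcodes past the filters, 10007 carried 1 dominant hashtag, 5758 of them on the 4 even-numbered rows and 4249 on the 4 odd-numbered rows. The rows held 577 to 2162 cells and 2283162 to 14601545 gene UMIs each. Levels are given in CPM, the UMIs of a gene per 1000000 gene UMIs, after adding up all cells of a row or class. Intervals are 95% and cover counting error only. The last limit is that the cells of the odd rows were mixed. They were split by the first gate met, at least 2 UMIs of the B cell gene Cd79a (810 cells), 5 of Cst3, abundant in myeloid cells (972), 1 of the recombinase gene Rag1 (418) or 2 of Ikzf2, which encodes Helios (1106), with 943 cells left as the rest class. Of these 4249 cells, 556 met more than 1 gate. A gate that asks for UMIs favours deep cells, and the median number of UMIs per cell was 6002.5, 10487, 13561.5, 5517.5 and 4159 in these 5 classes and 3400.5 in the even rows.

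The label of iNKT cells was checked against their markers. In the even rows Trav11, the segment of the invariant TCRα chain, lay at 39.5 to 56.5 CPM, Zbtb16 at 64.7 to 74.7 CPM, and Klrb1c, which encodes NK1.1, at 328 to 444 CPM. In the Ikzf2 class Trav11 lay at 0 to 1.70 CPM and Zbtb16 at 3.41 to 17.8 CPM over the 4 rows, while Cd24a, the CD24 gene of the stage 0 sort, lay at 292 to 368 CPM. Of 4289 TRAV UMIs of the Ikzf2 class, 7 were from Trav11, Trav11d and Trav11n added up (0.163%, Clopper-Pearson interval 0.0656 to 0.336). In the even rows 1267 of 4374 TRAV UMIs were from these segments (29.0%, 27.6 to 30.3). The class also held Nr4a1 at 317 CPM and Pdcd1 at 394 CPM, both genes raised by TCR signals. Levels of the other listed markers of agonist-selected thymocytes (Bcl2l11, Tnfrsf9, Foxp3 and Il2ra) are not reported here. Nor are those of Nr4a1 and Pdcd1 in other groups, so no identity is read from these genes. Of the 8 markers listed for stage 0 iNKT cells, Trav11 was at or near 0 and Zbtb16 far below the even rows, while Cd24a, Egr2, Sox4, Itm2a and Ldhb ranged from 36.5 to 626 CPM pooled and Ikzf2 was the gate. The class is therefore named only by its gate. The Cd79a class carried Cd79b at 792 CPM and the Cst3 class Batf3 at 178 CPM, against 14.2 and 1.3 CPM in the Ikzf2 class. The Rag1 class carried Cd8b1 at 338 CPM and Dntt at 779 CPM, genes of DP thymocytes and of thymocytes that rearrange their receptor genes.

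The SLAM receptor genes lie next to each other on mouse chromosome 1. In the GRCm38 assembly with GENCODE M21, 7 SLAM receptor genes fall within 394.0 kb, in the order Cd244a, Ly9, Slamf7, Cd48, Slamf1, Cd84 and Slamf6. Slamf7 (chr1:171632403-171653035, minus strand) and Slamf6 (chr1:171917515-171953170, plus strand) are 264.5 kb apart. Ly9 (chr1:171588624-171607410, minus strand) lies within the span of Cd244a, which is on the other strand. How reads in this shared span were assigned to the pair was not tested. Slamf1 spans chr1:171767127-171801184 on the plus strand. Outside this locus, Cd1d1 lies at chr3:86995834-86999441 (minus strand) beside its near-identical copy Cd1d2, which was not among the gene rows used here. Fyn lies at chr10:39368855-39565381 and Sh2d1a at chrX:42502453-42529330, both on the plus strand. The promoters of Slamf7 and Slamf6 are shown because, of these genes of 1 locus, Slamf6 was higher and Slamf7 lower in one class of the odd rows than in the even rows, as described below. They run from 250 bases before to 50 bases after the RefSeq start (GRCm38.p6), at chr1:171648950-171649249 on the minus strand and chr1:171917212-171917511 on the plus strand, and capitals mark matches to CANNTG, the E-box letters bound by E proteins, on either strand.
Slamf7: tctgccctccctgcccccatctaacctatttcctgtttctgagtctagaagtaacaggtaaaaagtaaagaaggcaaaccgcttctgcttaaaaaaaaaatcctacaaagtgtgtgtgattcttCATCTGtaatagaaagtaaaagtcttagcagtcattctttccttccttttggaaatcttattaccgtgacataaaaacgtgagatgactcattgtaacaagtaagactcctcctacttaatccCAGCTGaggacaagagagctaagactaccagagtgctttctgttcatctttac
Slamf6: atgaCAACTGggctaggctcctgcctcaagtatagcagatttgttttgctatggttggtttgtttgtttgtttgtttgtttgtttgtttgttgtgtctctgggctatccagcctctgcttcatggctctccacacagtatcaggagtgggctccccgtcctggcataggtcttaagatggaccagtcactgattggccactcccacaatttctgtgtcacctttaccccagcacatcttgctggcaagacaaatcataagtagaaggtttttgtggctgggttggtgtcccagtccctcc
The Slamf7 window held 2 matches and the Slamf6 window 1, and 72.3% of all 32851 RefSeq promoter windows of this length held at least 1. Of the 7 genes, 4 (Slamf1, Slamf6, Slamf7 and Fyn) had a window in this table.

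The first question was how the 7 genes were spread over the 8 rows. The level of Slamf6, a SLAM receptor that signals through SAP, was 56.4, 78.8, 61.9 and 75.9 CPM in odd rows 11, 13, 15 and 17, and 8.75, 10.7, 16.2 and 13.4 CPM in even rows 12, 14, 16 and 18. Every odd row was thus above every even row, and the pooled level was 6.06-fold higher in the odd rows (5.30 to 6.96). Ly9, another SLAM receptor, ran the other way, at 45.7, 44.5, 48.6 and 51.3 CPM in the odd rows and 168, 169, 157 and 154 CPM in the even rows. Within each side the Ly9 values were close, and the pooled level was 3.51-fold higher in the even rows (3.31 to 3.72). Fyn lay at 84.9, 78.8, 75.6 and 81.8 CPM in the odd rows and at 158, 155, 123 and 134 CPM in the even rows, again without overlap.

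Slamf7, a receptor of cytotoxic and myeloid cells as well, was steady in the even rows at 136, 146, 141 and 143 CPM. In the odd rows it varied from 37.4 CPM in row 17 and 62.4 and 65.5 CPM in rows 13 and 15 to 117 CPM in row 11, which came near the even rows. Row 11 also held the largest share of Cst3 class cells, 33.2%, and row 17 the smallest share of Cd79a class cells, 9.95%. Cd1d1 was low throughout, at 21.3, 27.3, 24.9 and 33.0 CPM in the odd rows and 21.0, 16.4, 12.7 and 14.0 CPM in the even rows. Its nearest values, in rows 11 and 12, had intervals of 18.5 to 24.5 and 17.5 to 25.0 CPM, so these rows did not differ beyond counting error. Pooled, Cd1d1 was 1.55-fold higher in the odd rows (1.37 to 1.76).

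Sh2d1a overlapped between the sides through row 11 alone. It was at 84.2, 136, 142 and 200 CPM in rows 11, 13, 15 and 17 and at 104 to 108 CPM in the even rows, and without row 11 it would be called lower in the even rows. Slamf1 was the lowest, from 8.99 to 15.7 CPM in the odd rows and from 3.96 to 11.3 CPM in the even rows, and its mean fell under the limit of 10 CPM set for counting calls. A gene was called in this comparison when its 4 odd and 4 even values did not overlap. Slamf7, Ly9 and Fyn were called higher in the even rows and Cd1d1 and Slamf6 lower, 5 of the 6 genes past the limit. Such calls were common, since 26.1% of 8688 features were higher and 34.6% lower in the even rows, so the calls of these genes do not set them apart. The call of Cd1d1 was lost with a hashtag share of 95% of at least 50 UMIs, with at most 4000 genes per cell and with ribosomal, Gm, immunoglobulin and mitochondrial genes left out of the total for CPM, that of Slamf7 with at most 4000 genes per cell, and that of Fyn with cells thinned to 2000 UMIs.

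**Figure D1:**
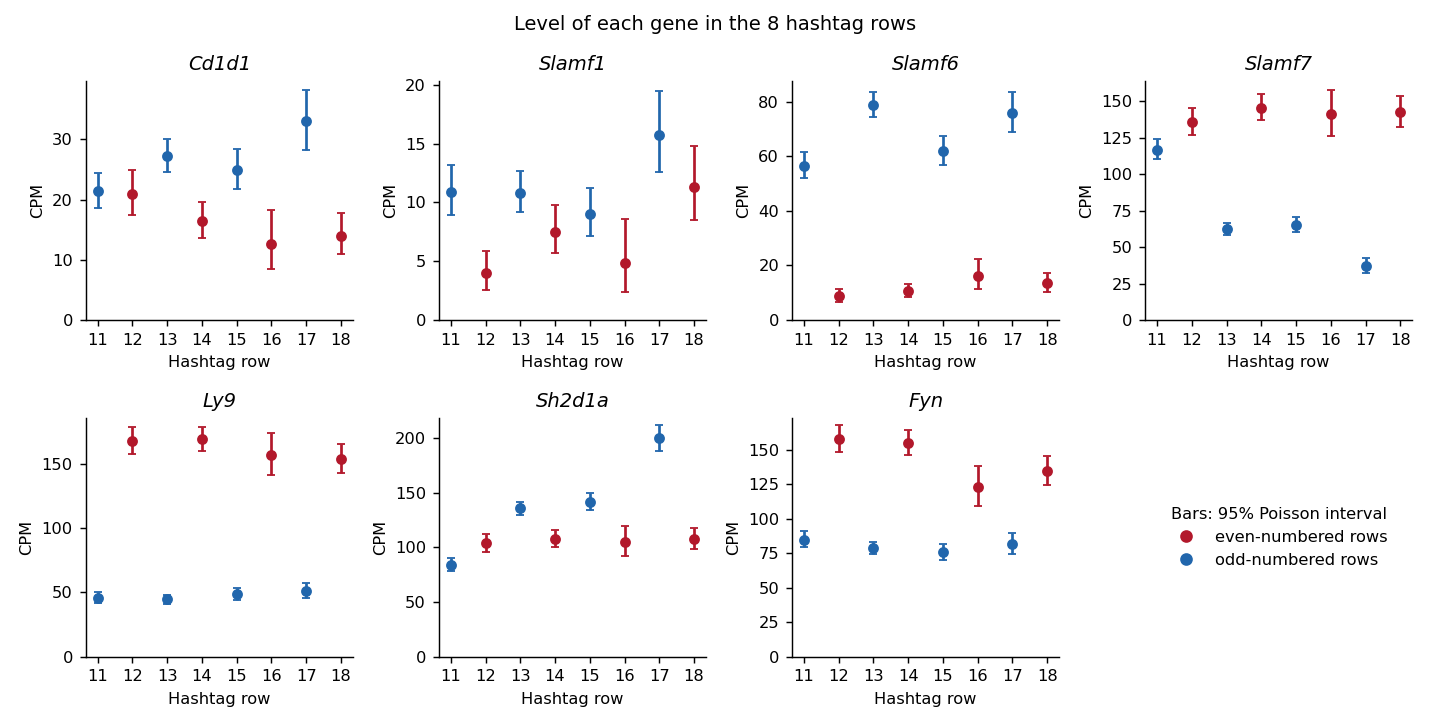
CPM of each gene (y axis, from 0) in hashtag rows 11 to 18 (x axis), with even rows in red, odd rows in blue and 95% Poisson intervals as bars. Slamf6 was 56.4 to 78.8 CPM in odd rows and 8.75 to 16.2 CPM in even rows, whereas Ly9 was 44.5 to 51.3 and 154 to 169 CPM.

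The odd rows hold several kinds of cells, so their sums can move with the mix. The next comparison set the Ikzf2 class alone against the even rows. Slamf6 lay at 146, 150, 113 and 112 CPM in the Ikzf2 class of rows 11, 13, 15 and 17, 11.7-fold above the even rows when pooled (10.1 to 13.5). Slamf7 lay at 5.09, 4.19, 3.41 and 5.68 CPM, from 6, 15, 7 and 10 UMIs, and the even rows were 32.0-fold higher (23.2 to 45.3). The high Slamf7 sums of the odd rows were therefore not from this class. Ly9 lay at 49.2 to 60.4 CPM, with the even rows 2.86-fold higher (2.60 to 3.15).

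Cd1d1 was at 36.4, 42.8, 38.5 and 54.5 CPM in the Ikzf2 class, each above the highest even row, and 2.58-fold higher when pooled (2.22 to 2.99). Sh2d1a was at 187, 179, 167 and 209 CPM, and 1.72-fold higher than in the even rows (1.61 to 1.84). Slamf1 was at 12.2 to 19.3 CPM, 2.28-fold higher (1.79 to 2.89), although its lowest value was close to the 11.3 CPM of row 18. Fyn, at 121 to 153 CPM, overlapped the even rows, with a pooled ratio of 0.942 (0.880 to 1.01). In all, Cd1d1, Slamf1, Slamf6 and Sh2d1a were called higher and Slamf7 and Ly9 lower, 6 of 7, where 43.5% of 8614 features were higher and 21.2% lower. Slamf1 was not called with the stricter hashtag share, and Fyn was called higher with cells thinned to 2000 UMIs.

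**Figure D2:**
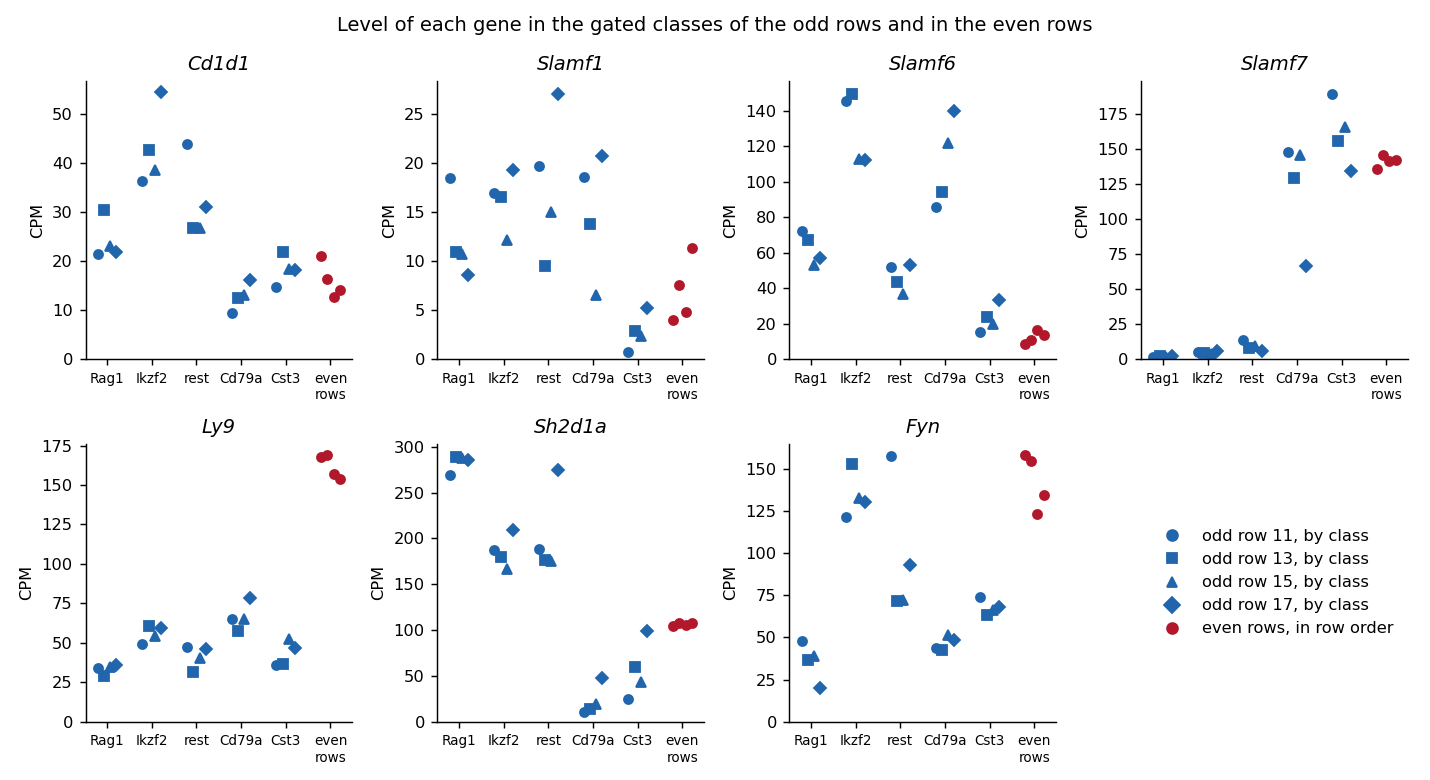
CPM of each gene (y axis, from 0) in the 5 gated classes of the odd rows, with 1 blue symbol for each row, and in the 4 even rows in red. Slamf7 was at 1.54 to 13.4 CPM in the Rag1, Ikzf2 and rest classes but at 66.6 to 189 CPM in the Cd79a and Cst3 classes.

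Within the odd rows, each class was then set against the Ikzf2 class in the same row, on the scale of log2(CPM + 10). A gene was called when it differed by at least 1.5-fold in the same direction in all 4 rows. In the Rag1 class, which carried the DP thymocyte markers, Fyn was at 47.6, 36.6, 38.9 and 19.9 CPM in rows 11, 13, 15 and 17, below the Ikzf2 class in every row, and was 3.91-fold higher in the Ikzf2 class when pooled (3.36 to 4.57). Slamf6 was at 72.2, 67.0, 53.0 and 56.9 CPM, also below it in every row (2.17-fold, 1.92 to 2.45). These were the only genes of the 7 called, against a background of 1.25% of 8403 features higher and 6.56% lower. Rag1 class cells of row 11 were shallower, with a median of 3684.5 UMIs against 14409 to 15274 in rows 13, 15 and 17. Pooled over the rows, the Rag1 class was deeper than the Ikzf2 class, with medians of 13561.5 and 5517.5 UMIs. With at most 4000 genes per cell Fyn was no longer called. Whether depth had a part in the row 11 values or in these calls was not tested.

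The remaining genes of the Rag1 class fell short of a call. Sh2d1a had its highest pooled level of the 5 classes here, at 269, 289, 288 and 285 CPM, above the Ikzf2 class in 4 of 4 rows but by a median of only 0.58 on the log2 scale. Cd1d1, whose product is displayed by DP thymocytes, was at 21.5, 30.4, 23.1 and 21.8 CPM, below the Ikzf2 class in 4 of 4 rows by a median of -0.55. Ly9 was at 29.0 to 36.0 CPM, and Slamf1 at 8.53 to 18.4 CPM. Slamf7 was almost absent, with 1, 5, 3 and 2 UMIs in the 4 rows. Of the Rag1 class cells, 112 of 418 also met the Ikzf2 gate, and without them Fyn was at 16.3 to 50.7 CPM and Sh2d1a at 271 to 277 CPM.

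In the rest class Slamf6 was the only called gene, at 52.2, 43.5, 36.6 and 53.1 CPM, and 2.93-fold higher in the Ikzf2 class (2.58 to 3.33; background 0.385% higher and 1.71% lower of 8572 features). Row 11 stood apart for Fyn, at 158 CPM against 71.6, 71.9 and 93.1 CPM in the other rows, and the median number of UMIs in rest cells of row 11 was 2859, against 4847.5 to 7120 in the others. Whether depth had a part in this was not tested. Sh2d1a was at 189, 176, 175 and 274 CPM, with row 17 apart from the other 3. Cd1d1 was at 26.7 to 43.9 CPM and Ly9 at 31.6 to 47.1 CPM.

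Of the 7 genes, Slamf7 had the largest pooled fold difference between the Ikzf2 class and each of the Cd79a and Cst3 classes. Slamf7 was at 148, 129, 146 and 66.6 CPM in the Cd79a class and at 189, 156, 166 and 135 CPM in the Cst3 class. Pooled, it was 30.2-fold (21.8 to 42.9) and 38.1-fold (27.6 to 54.0) above the Ikzf2 class. Sh2d1a, whose product acts in T and NK cells, was at 10.2, 13.7, 19.6 and 48.3 CPM in the Cd79a class and at 25.0, 59.2, 43.0 and 99.1 CPM in the Cst3 class, with row 17 highest in both. The share of Ikzf2 class cells was also highest in row 17, at 39.1%. Of the 810 Cd79a class cells 307 met a further gate, as did 137 of the 972 Cst3 class cells. Without them Sh2d1a was at 10.0 to 15.3 and 10.4 to 34.0 CPM, and Slamf7 at 75.9 to 134 and 187 to 222 CPM. Slamf6 was then at 5.65 to 13.3 CPM in the Cst3 class, and Slamf1 at 11.1 to 32.8 CPM in the Cd79a class.

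Slamf6 separated these classes from each other. It was at 85.6, 94.1, 122 and 140 CPM in the Cd79a class, overlapping the Ikzf2 class, and at 15.5, 23.8, 19.9 and 33.0 CPM in the Cst3 class. Slamf1 had 3, 9, 6 and 6 UMIs in the Cst3 class, or 2.18 CPM pooled (1.40 to 3.24), and 14.8 CPM in the Cd79a class (12.0 to 18.1). Cd1d1 was at 9.31 to 16.1 CPM in the Cd79a class and 14.8 to 21.9 CPM in the Cst3 class. In the Cd79a class Slamf7 was called higher and Cd1d1, Sh2d1a and Fyn lower (background 7.21% and 18% of 8696 features). In the Cst3 class Slamf7 was called higher and Cd1d1, Slamf6, Sh2d1a and Fyn lower (8.12% and 7.30% of 8741).

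The share of cells with at least 1 UMI was compared after each cell was thinned to 2000 UMIs, which left out 552 shallower cells of the even rows and 216 of the odd rows. Sh2d1a was found in 38.6% of Rag1 class cells (33.7 to 43.6), 26.1% of Ikzf2 class cells (23.5 to 28.9) and 18.9% of cells of the even rows (17.9 to 20.0). It was found in 3.15% of Cd79a class cells (2.05 to 4.62). Before thinning, 307 of the 810 cells of this class met a further gate, so the share is no clean background level. The unthinned shares were 76.8%, 50.5%, 29.9% and 7.53%, at the unequal depths given above. Slamf7 was found in 0.855% of Ikzf2 class cells (0.392 to 1.62) and 0.771% of Rag1 class cells (0.159 to 2.24), but in 23.6% of cells of the even rows (22.4 to 24.7). Cd1d1 was found in 10.4% of Ikzf2 class cells (8.58 to 12.4), 7.20% of Rag1 class cells (4.84 to 10.2) and 3.44% of cells of the even rows (2.96 to 3.97). Cd1d1 shares of the Ikzf2 and Rag1 classes had overlapping intervals.

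**Figure D3:**
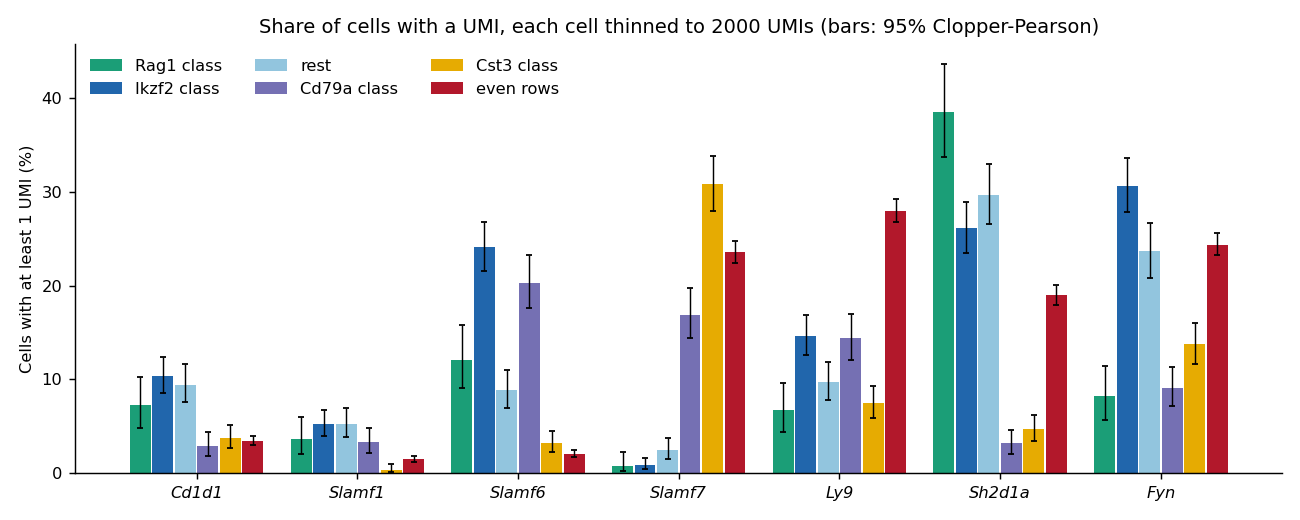
Share of cells with at least 1 UMI (y axis, percent, from 0) for each gene and class after thinning every cell to 2000 UMIs, with 95% Clopper-Pearson intervals as bars. Sh2d1a was highest in the Rag1 class at 38.6% and Slamf7 was below 1% in both the Rag1 and the Ikzf2 class.

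The other SLAM receptors of the locus gave a wider view of the family. Cd48, the ligand of the 2B4 receptor, was called higher in the even rows, at 185 to 206 CPM against 98.0 to 154 CPM in the odd rows. Cd84, a homotypic receptor, was also called higher there, at 71.0 to 86.2 against 33.7 to 43.9 CPM. Against the Ikzf2 class, Cd48 was again called, while Cd84, at 63.3 CPM pooled in the Ikzf2 class and higher but overlapping in the even rows, was not. Cd244a, which encodes 2B4, was at 32.1 CPM in the Cst3 class, 9.0 CPM in the even rows and 4.3 CPM in the Ikzf2 class, and shares its span with Ly9. Of the 9 SLAM family genes, 4 were called higher (Cd48, Ly9, Cd84 and Slamf7) and 2 lower (Slamf6 and Slamf8) in the even rows, among 7 past the limit, where 26.1% of all features were higher and 34.6% lower. In the Ikzf2 class against the even rows, 2 of 6 were higher and 3 lower, beside 43.5% and 21.2% of all features. The median log2 difference was -0.67 for these receptors and 0.18 over all features.

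**Figure D4:**
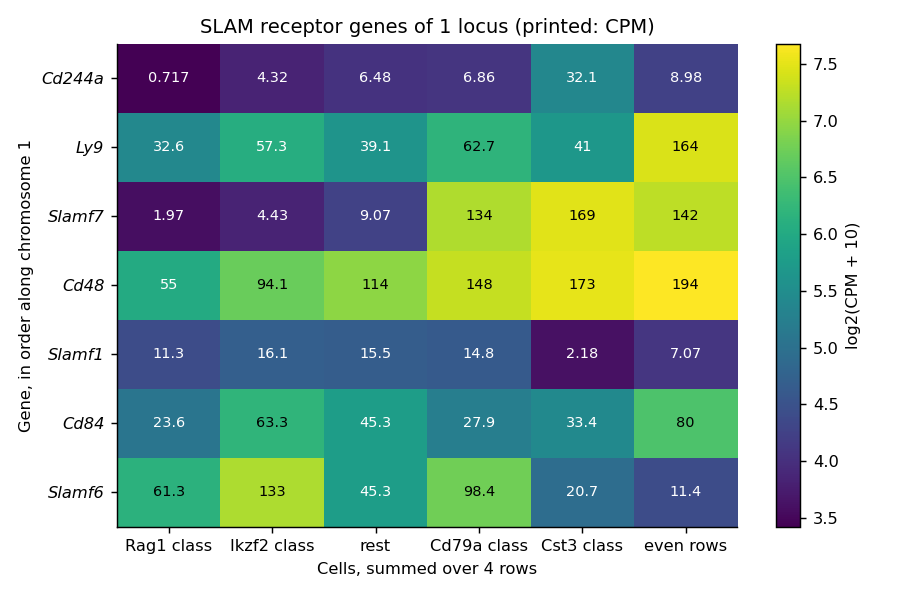
CPM, printed and coloured on a log2(CPM + 10) scale, of the 7 SLAM receptor genes of the chromosome 1 locus (rows, in order along the chromosome) in each class summed over 4 rows (columns), to be compared along a row. Slamf6 was highest in the Ikzf2 class, at 133 CPM, and Ly9 in the even rows, at 164 CPM.

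Downstream of the receptors, 6 kinases and phosphatases and further genes from Fyn to NF-κB were compared, from lists named in the processing section. The shares of all features called were, as above, 26.1% higher and 34.6% lower in the even rows against the odd rows, and 43.5% higher and 21.2% lower in the Ikzf2 class against the even rows. In the even rows against the odd rows, Fyn, Lck, Ptpn6 (SHP-1) and Csk were higher and Ptpn11 (SHP-2) lower, and Prkcq, Bcl10, Malt1 and Rela were higher. In the Ikzf2 class, Lck, Ptpn6, Inpp5d (SHIP-1) and Csk were lower than in the even rows, as were Prkcq, Malt1 and Rela, while Ptpn11 and Nfkb1 were higher. Prkcq, the kinase PKCθ recruited in this pathway, was at 94.6 CPM in the Ikzf2 class, 31.4 CPM in the Rag1 class and 204 CPM in the even rows. The other SAP family adaptors were scarce, with Sh2d1b1 at 17.6 CPM in the Cd79a class and 0.8 CPM in both the Ikzf2 class and the even rows.

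Of the CD1d presentation genes, B2m, the light chain of CD1d and MHC class I, was at 600 CPM in the Ikzf2 class, 374 CPM in the Rag1 class and 1663 CPM in the even rows. Ctsl, a lysosomal protease known for its part in CD1d presentation by thymocytes, was at 62.0 CPM in the Rag1 class, 35.6 CPM in the Ikzf2 class and 5.6 CPM in the even rows. Cd1d1, Ctsl and Ap3b1 were called higher and B2m, Psap, Ctss and Npc2 lower in the Ikzf2 class against the even rows, 7 of 8 past the limit, where 43.5% of all features were higher and 21.2% lower. Read beside the same shares, of the regulators past the limit, Egr1, Egr2, Myb, Tcf12, Tcf3, Runx1, Tox and Id3 were called higher in the Ikzf2 class and Zbtb16, Gata3, Ets1 and Id2 lower. Egr2, a TCR-induced factor upstream of Zbtb16, was at 36.5 CPM in this class, 0.7 CPM in the Rag1 class and 13.5 CPM in the even rows.

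Within the Ikzf2 class, 53 of 1106 cells carried a Zbtb16 UMI. Only row 13 had at least 20 cells on both sides, so values are given without calls. In that row the 30 Zbtb16-positive cells had Slamf6 at 178 CPM (134 to 231) and the negative cells at 147 CPM, and Sh2d1a at 178 CPM (134 to 231) and 180 CPM. Cd1d1 had 6 UMIs in the positive cells, which gives an interval of 6.99 to 41.5 CPM, against 45.0 CPM in the negative cells. Pooled over the 4 rows, Slamf6 was at 219 CPM (181 to 263) in the positive and 127 CPM (119 to 135) in the negative cells, and Fyn at 192 CPM (157 to 233) and 135 CPM (127 to 144). The 8 positive cells of row 11 gave 31 of the 115 Slamf6 UMIs. Over all 4 rows the positive cells were deeper, with a median of 9149 UMIs against 5374.

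The Ikzf2 class was also split by its cycling and activation genes, a split added after values of the class had been seen. Cells with a UMI of Mki67, a gene of cycling cells, numbered 398. Of the others, 332 had a UMI of Tnfrsf9, which encodes 4-1BB, and 376 cells remained. The level of Slamf6 was 111, 120, 72.3 and 87.4 CPM in the Mki67 cells of rows 11, 13, 15 and 17, and 215, 236, 241 and 219 CPM in the remaining cells. Slamf1 was at 4.88 to 15.4 CPM in the Mki67 cells and 28.7 to 36.4 CPM in the remaining cells, without overlap. Cd1d1 was at 19.5 to 30.7 and 51.0 to 112 CPM, and Fyn at 85.3 to 110 and 159 to 219 CPM. These 4 genes were called lower in the Mki67 cells (background 5.03% of 8693 features higher and 4.67% lower), and Sh2d1a, at 170 to 238 and 156 to 251 CPM, was not.

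Depth moved with that split. The median was 12107.5 UMIs in the Mki67 cells and 3761 in the remaining cells, and the levels are shares of those totals. Counted per cell, Cd1d1 had 0.337 UMIs in the Mki67 cells and 0.332 in the remaining cells, and Slamf6 had 1.24 and 1.02. With cells of more than 4000 genes left out, or with each cell thinned to 2000 UMIs, none of the 7 genes was called, although the median log2 difference of Slamf6 was still -0.60 and -0.91. In the Tnfrsf9 cells no gene of the 7 was called (background 0.300% higher and 0.496% lower of 8678 features), and Slamf6 was at 174, 150, 129 and 78.0 CPM, below the remaining cells in 4 of 4 rows.

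**Figure D5:**
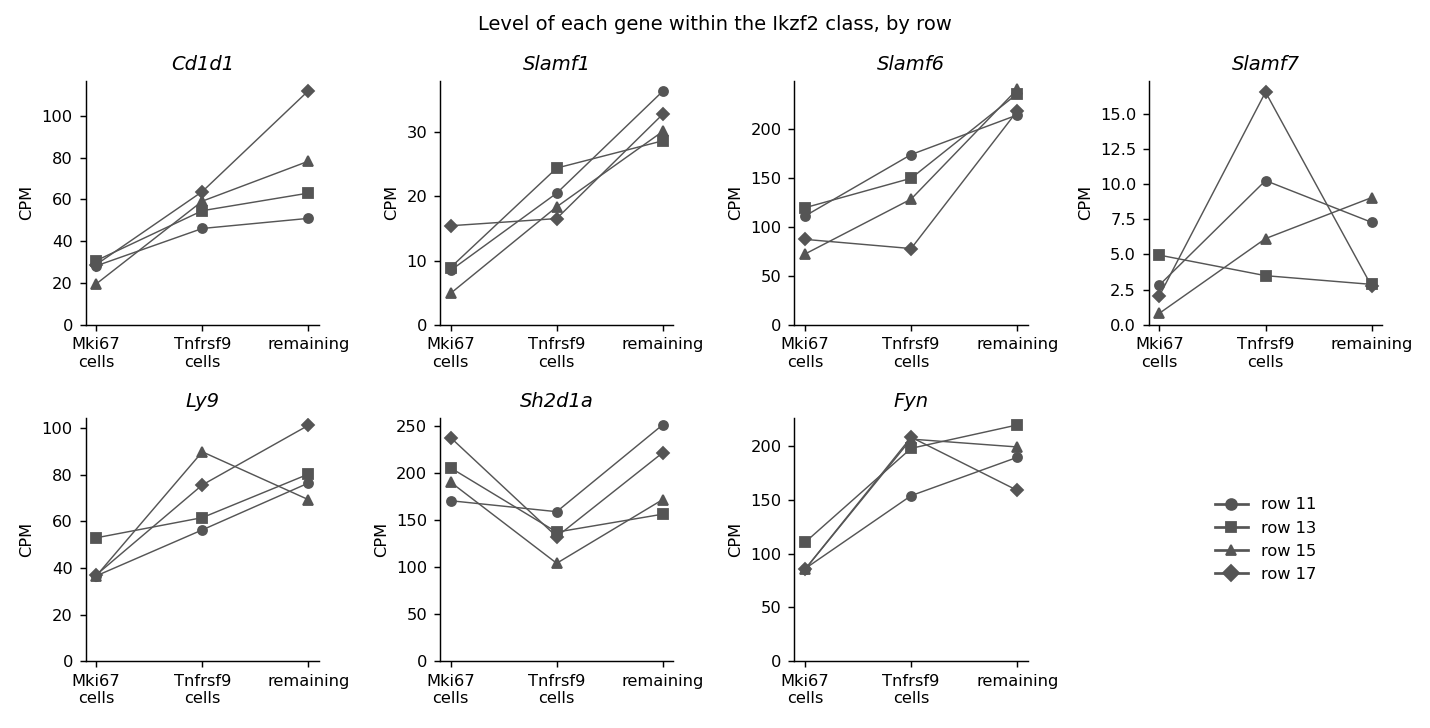
CPM of each gene (y axis, from 0) in the Mki67 cells, the Tnfrsf9 cells and the remaining cells of the Ikzf2 class, with 1 line for each odd row. Slamf6 was at 72.3 to 120 CPM in the Mki67 cells and 215 to 241 CPM in the remaining cells of all 4 rows.

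In the even rows the cells were split into 1241 with at least 3 UMIs of the chemokine gene Ccl5, 1528 of the others with a UMI of Izumo1r, which encodes folate receptor 4, and 2989 left. Sh2d1a was at 122, 133, 141 and 132 CPM in the Izumo1r class of rows 12, 14, 16 and 18, and at 84.5, 104, 87.5 and 91.4 CPM in the Ccl5 class. Slamf7 ran the other way, at 120, 123, 111 and 118 CPM in the Izumo1r class and 150, 152, 184 and 170 CPM in the Ccl5 class. Neither set of values overlapped, yet neither gene reached 1.5-fold in each row, and the pooled ratios were 1.40 (1.25 to 1.58) and 0.758 (0.682 to 0.841). Slamf6 was higher in the Izumo1r class in 4 of 4 rows, at 13.6 to 35.2 against 6.26 to 11.7 CPM, from only 3 to 21 UMIs per row in the Ccl5 class. Ly9, at 148 to 168 and 126 to 163 CPM, and Fyn, at 137 to 165 and 119 to 177 CPM, overlapped. None of the 7 genes was called, where 0.150% of 8025 features were higher and 0.324% lower. Among the regulators, Zbtb16 and Tox were called higher in the Izumo1r class.

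To describe which other genes followed each of the 7, log2(CPM + 10) was correlated over 24 groups, the 4 even rows and the 5 classes of each odd row. The groups share 1 library, and the values describe these groups only. The closest genes were Hopx for Ly9 (Pearson r = 0.961), Lbr for Sh2d1a (0.977), Pik3ap1 for Slamf7 (0.980), Phtf2 for Slamf6 (0.943), Nrip1 for Cd1d1 (0.944), Tut7 for Fyn (0.943) and Zfp64 for Slamf1 (0.836), among 6778 genes. The next closest gene to Fyn was the SLAM receptor gene Cd84 (0.930).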

How the data were processed

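The deposited values are raw UMI counts for every gene and hashtag in each barcode, which the authors made with Cell Ranger 6.0.0 (prebuilt mm10 reference of mouse). The sources used here do not say whether counting used the strand. Both the genes and lists were chosen with earlier results of these data known. A barcode was kept if it had 1000 genes or more, no more than 5% of mitochondrial UMIs, and if 1 of hashtag rows 11 to 18 held at least 80% of at least 10 UMIs on these rows. This leaves out barcodes with mixed hashtags, but a doublet with unequal amounts of its hashtags can pass. No doublet caller was run on doublets within a hashtag. Free RNA was not removed. Cells were summed per row and class (at least 20 cells for a within-row ratio) into CPM, with exact Poisson intervals (Clopper-Pearson for shares) at 95%, using a pseudocount of 10 CPM on the log2 scale and a mean of at least 10 CPM for calls. The 8 populations form 1 pooled sample, so no test was made.

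Named genes were the 7 genes, genes of the lists, the cell type markers and, per gene, the 3 most correlated genes with a mean of at least 20 CPM, of which mostly the first is printed. The lists were SLAM family receptors (Slamf1, Cd48, Ly9, Cd244a, Cd84, Slamf6, Slamf7, Slamf8, Slamf9), SAP family adaptors (Sh2d1a, Sh2d1b1, Sh2d1b2), kinases and phosphatases (Fyn, Lck, Ptpn6, Ptpn11, Inpp5d, Csk), Fyn to NF-κB (Prkcq, Bcl10, Malt1, Nfkb1, Rela, Vav1), CD1d presentation (Cd1d1, Cd1d2, B2m, Mttp, Psap, Ctsl, Ctss, Ap3b1, Ap3d1, Npc2) and regulators (Zbtb16, Egr1, Egr2, Myb, Tcf12, Tcf3, Runx1, Gata3, Ets1, Tox, Bcl2l1, Id2, Id3). Some further genes of these lists are not reported here. Analyses used Python 3.11.15, numpy 2.4.6, scipy 1.17.1 and pandas 2.3.3.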

Additional observations from a re-analysis of the deposited data

Results flagged for a closer look

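In the rest class of the odd rows, Sh2d1a in row 17 stood far from the other 3 rows, at 274.423 CPM from 274 UMIs against 175 to 189 CPM. In the Ccl5 class of the even rows, Slamf6 in row 14 was at 11.7163 CPM from 21 UMIs against 6.26 to 6.73 CPM in the other 3 rows. Of 70 groups of 4 rows examined, 2 held such a value, and chance alone gives about 1 in 20. Outside the rows used for the cells, 12255 UMIs lay on hashtag row 1 and 11854 on hashtag row 4, above the at most 599 UMIs on each of the other unused rows, and their source was not tested.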

How the results depend on the processing

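No alternative turned the direction of a called gene. The number of the 7 genes called in the Mki67 cells moved from 4 to 2 with a hashtag share of 95% of at least 50 UMIs, and to 0 with at most 4000 genes per cell, with cells thinned to 2000 UMIs and with a 2-fold limit. In the Tnfrsf9 cells it moved from 0 to 1 with stricter gates (Slamf6), and leaving out 1 row gave 0 to 1 (Slamf6 without row 11, Sh2d1a without row 13). In the Rag1 class it moved from 2 to 1 with at most 4000 genes (Fyn no longer called) and with a 2-fold limit (Slamf6 no longer called). With a 2-fold limit it moved from 1 to 0 in the rest class and from 5 to 3 in the Cst3 class (Cd1d1 and Fyn no longer called). The cause was not tested. Over all comparisons and alternatives, 119 counts of called genes stayed within 1.5 times the first value and 11 did not. Of the counts of called list genes under the 2-fold limit, 30 stayed within it and 12 did not. Levels moved more often: of the CPM values of single rows, 119 stayed within their first Poisson interval and 49 did not. Of the log2 differences, 913 stayed within counting error of the first value and 81 did not. After thinning, 42 shares of cells with a UMI lay outside their unthinned interval. Within-row differences of the Zbtb16 split come from row 13 alone, so it has no calls, and there were none to compute with stricter gates or without row 13. The backgrounds moved too: over the alternatives the even rows had 15.1 to 28.8% of features higher and 27.5 to 41.6% lower than the odd rows, the Ikzf2 class 28.4 to 46.6% and 13.5 to 24.3% against the even rows, and the Rag1 class 0.274 to 3.45% and 3.19 to 9.07%, the rest class 0.0117 to 1.26% and 0.712 to 2.71%, the Cd79a class 4.11 to 9.27% and 5.50 to 29.4% and the Cst3 class 4.93 to 10.8% and 2.32 to 17.3% against the Ikzf2 class. They were 0.0125 to 0.350% and 0.0997 to 0.663% for the Izumo1r against the Ccl5 class, 2.30 to 6.10% and 0.897 to 7.54% for the Mki67 cells and 0.104 to 0.598% and 0.0461 to 1.65% for the Tnfrsf9 cells. Alternatives added after the data were seen were the Mki67 and Tnfrsf9 split and the even rows without the 225 cells meeting an odd-row gate. No paired analysis was possible because the hashtag rows carry no group or replicate number that would pair samples; comparisons of classes were made within each row. Depth limits Slamf1, Slamf7 in the Rag1 and Ikzf2 classes, Slamf6 in the Ccl5 class and the Zbtb16 split, where single values rest on a few UMIs.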
